A study of Punica granatum with 8 samples.

Results

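In pomegranate hairy roots, 90 of the 18831 genes in the deposited tables stood higher in each of 5 libraries that overexpressed a Myb gene than in any of the 3 empty vector (EV) libraries. The members were chosen on the normalized counts of these same 8 libraries. A gene was taken when its mean over the 8 libraries was at least 10, and when the lowest overexpression library was above 0 and at least 1.5 times the highest EV library. Of the 14869 genes with such a mean, the 90 make up 0.605%, and the mirrored rule, with every EV library at least 1.5 times above every overexpression library, took 39. As these values chose the members, the gap between EV and overexpression is given here as a description, and a fit against EV tests nothing about them.

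Hairy roots are transgenic roots that form after infection with Agrobacterium rhizogenes. All the libraries came from young hairy roots of the pomegranate cultivar PG116-17, which showed green fluorescence and were grown in a greenhouse for 3 months. Of these, 3 lines overexpressed PgMyb308-like from the constitutive CaMV 35S promoter and 3 lines carried the same vector without it. A further 2 libraries are labelled line 1712, with the genotype given as overexpression of PgMyb308 and with a sequence record that differs from the PgMyb308-like one. The promoter of line 1712 is not given in the sources used here. The PgMyb308-like and EV libraries came from separately transformed lines, and the PgMyb308-like lines had been selected for a high level of the transgene. Whether the 2 libraries of line 1712 came from separate transformations is not given in the sources used here, so that their spread may be technical. The p-values below rest on a spread pooled over all 8 libraries, most of them EV and PgMyb308-like lines. Those that involve line 1712 may therefore not reach beyond these samples of it. RNA was measured by TranSeq, a 3′ end method, in which long and short genes give a like number of reads per transcript.

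R2R3 Myb proteins form a large family of plant transcription factors and bind DNA through a pair of Myb repeats at the N-terminus. Those of the group to which PgMyb308-like belongs are known from other plants mostly as regulators of the phenylpropanoid pathway, which turns phenylalanine into lignin precursors, flavonoids and hydroxycinnamic acids. Phenylalanine itself is made from shikimate, the pathway that in pomegranate also supplies gallic acid for hydrolyzable tannins. The gene tables and the annotation used here name genes by locus identifier and position only, without products, so that none of the 90 can be given a role here. Transgene levels and root cell type markers were, for want of names, not checked.

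The deposited counts summed to between 1263321 (PgMyb308-like replicate 1) and 3976951 (line 1712 replicate 1) per library. The values below are the authors' normalized counts, which are raw counts divided by 1 size factor per library. A single read was thus worth from 0.565 normalized counts in line 1712 replicate 1 to 1.82 in PgMyb308-like replicate 1. In whole roots, a change in the number of cells of a type and a change of RNA per cell cannot be told apart.

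The 90 genes took a small share of the RNA, and more of it in the overexpression libraries. Together they held 0.212%, 0.196% and 0.233% of the counts in EV replicates 1, 2 and 3. In PgMyb308-like replicates 1, 2 and 3 they held 1.58%, 1.86% and 0.782%, and in line 1712 replicates 1 and 2 they held 0.678% and 1.06%. The 4 most abundant members alone made up 0.0923% to 0.128% of the counts with EV and 0.276% to 1.08% with overexpression. By mean level, 33 of the 90 lay between 10 and 30 normalized counts, 28 between 30 and 100, 25 between 100 and 1000 and 4 above 1000. The median level of the members was 45.0 normalized counts, against 58.5 over all 14869 genes.

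The width of the gap between the groups varied over the 90. Among the 86 genes with at least 1 read in EV, the lowest overexpression library was at least 2 times the highest EV library in 44, at least 3 times in 19 and at least 10 times in 3. In these 86 the mean of the 5 overexpression libraries ranged from 1.92 to 521 times the mean of the 3 EV libraries, with a median of 5.44. All 5 overexpression libraries lay above all 3 EV libraries by any margin in 470 genes, or 3.16% of the 14869. Few reads lay behind some of the 90. In 22 the overexpression library with the fewest reads, not always the one with the lowest normalized count, held fewer than 10. In 22 the 3 EV libraries together held fewer than 10. On both sides, 60 had at least 10, in each overexpression library and in EV together.

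**Figure D1:**
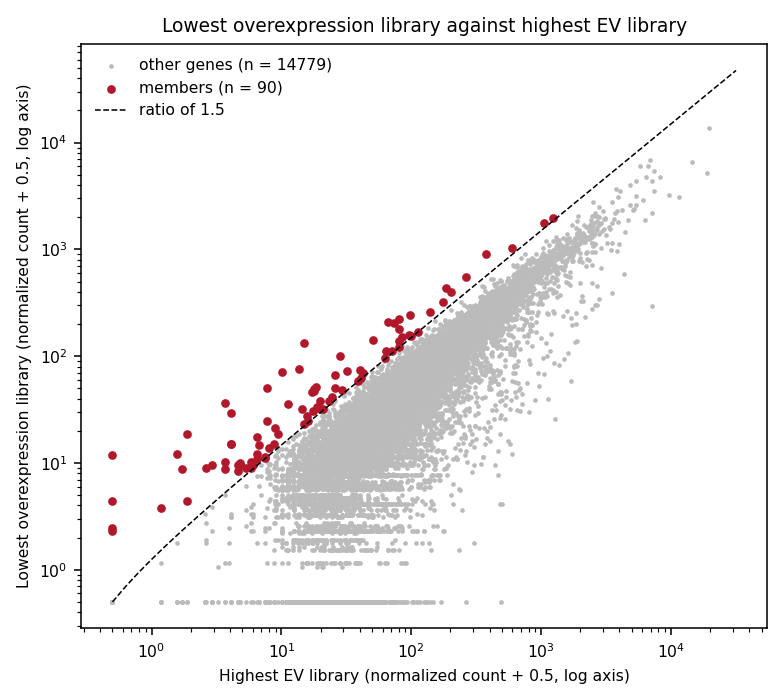
The lowest of the 5 overexpression libraries (vertical axis) against the highest of the 3 EV libraries (horizontal axis) for all 14869 genes with a mean normalized count of at least 10, both as normalized count plus 0.5 on log axes. The 90 members (red) lie on or above the dashed line of a ratio of 1.5, 44 of the 86 with an EV read at a ratio of 2 or more.

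No read was found in EV for 4 members, which were read in all 5 overexpression libraries. LOC116214125, on chromosome 7 of ASM765513v2 from 476201 to 478186, was at 27.3, 51.6 and 36.4 normalized counts in PgMyb308-like replicates 1, 2 and 3 and at 11.3 and 23.7 in line 1712 replicates 1 and 2. Every library with a construct was well above the 0 of EV. For a group total of 0 reads, 3 reads over the EV libraries set an upper limit of 0.933 normalized counts, so that the mean with overexpression was at least 32.2-fold higher. The limit covers counting error only. The lowest overexpression library of the 4 genes was from 1.95 to 12.1 times this limit.
The other 3 were less even between the libraries. LOC116201003 (chromosome 3, 7391037 to 7394738) stood at 70.9, 45.4 and 1.95 normalized counts with PgMyb308-like and at 14.7 and 32.1 in line 1712, a mean at least 35.4-fold higher than EV. LOC116209704 (chromosome 5, 11209440 to 11210277) stood at 54.5, 5.16 and 3.9 with PgMyb308-like and at 5.08 and 16.8 in line 1712, at least 18.3-fold higher. LOC116199151 (chromosome 3, 520384 to 521617) stood at 1.82, 32.0 and 23.4 with PgMyb308-like and at 11.9 and 15.3 in line 1712, at least 18.1-fold higher. The lowest library of LOC116201003, PgMyb308-like replicate 3, rests on 3 reads, and that of LOC116199151, PgMyb308-like replicate 1, on 1 read. A further 16 genes with a mean of at least 10 were also at 0 in all EV libraries, but were at 0 in an overexpression library as well and are not members.

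Of the members with reads in EV, those with the largest ratio of the lowest overexpression library to the highest EV library had few EV reads. LOC116214204 (chromosome 7, 7915746 to 7921418) had 2 reads in the EV libraries together and stood at 18.2, 39.2 and 20.8 normalized counts with PgMyb308-like and 26.0 and 32.1 in line 1712. LOC116194711 (chromosome 2, 12208006 to 12212703) had 1 read in EV and stood at 25.5, 35.1 and 11.7 with PgMyb308-like and at 18.1 and 12.6 in line 1712. LOC116202883 (chromosome 4, 7221858 to 7226218) had 7 reads in EV, at 2.41, 3.20 and 1.38 normalized counts, and lay at 116, 59.9 and 149 with PgMyb308-like and at 36.1 and 54.4 in line 1712. In these 3 genes the overexpression libraries differed among themselves by 2.16 to 4.12 times.
The fourth largest ratio, with more reads in EV, was that of LOC116192301, on chromosome 1 from 6488547 to 6489785. It lay at 14.4, 3.20 and 0.69 normalized counts in EV replicates 1, 2 and 3, at 149, 144 and 162 with PgMyb308-like and at 134 and 226 in line 1712. The 3 PgMyb308-like lines were nearly level, with a mean of 152 ± 8.95 (SD, n = 3), while EV replicate 1 was above the other EV libraries. Line 1712 stood at 180 ± 65.2 (SD, n = 2), and the 2 overexpression groups overlapped.

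**Figure D2:**
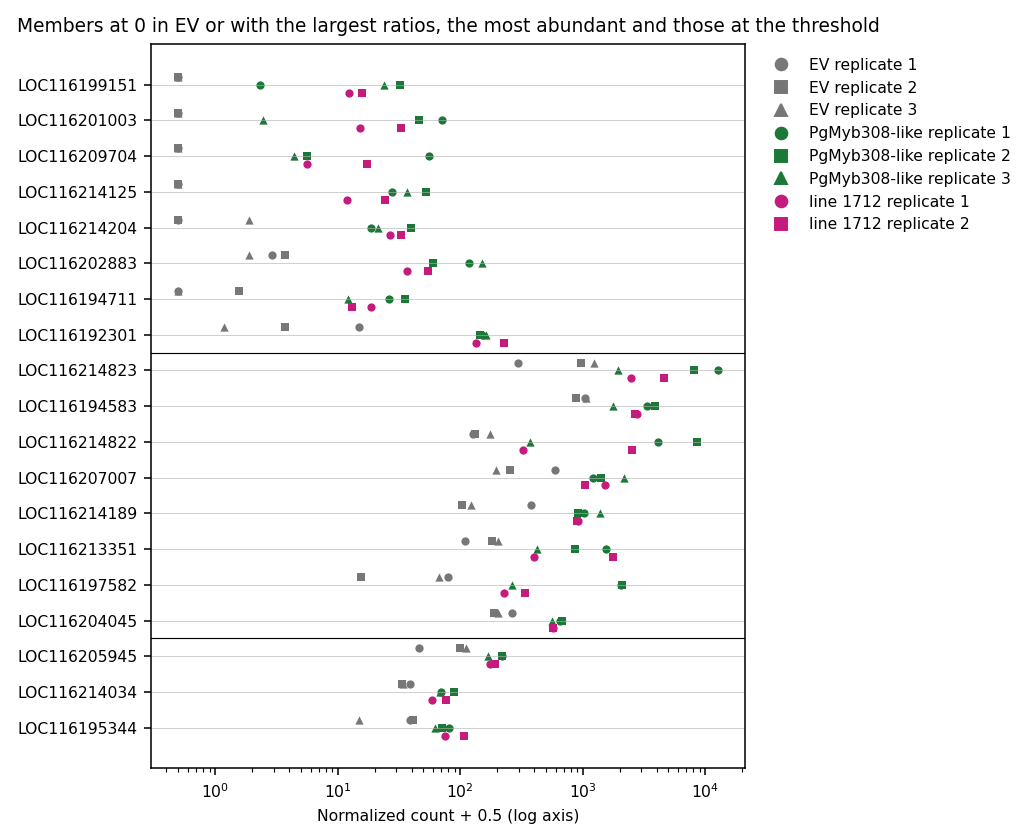
Normalized count plus 0.5 (log axis) in each of the 8 libraries for the 4 members without an EV read and the 4 with the largest ratios among the others (top), the 8 most abundant (middle) and the 3 nearest the threshold (bottom), with the group given by colour and the replicate by shape. In the top part most EV values lie towards the left edge, where genes without a read are drawn at 0.5. EV replicate 1 of LOC116192301, at 14.4 normalized counts, lies further right. In the bottom part the groups lie side by side.

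The most abundant member, LOC116214823, lies on chromosome 7 from 26427515 to 26428796. It stood at 297, 971 and 1234 normalized counts in EV replicates 1, 2 and 3, at 12744, 8071 and 1952 with PgMyb308-like and at 2462 and 4558 in line 1712. The overexpression libraries spread widely, and PgMyb308-like replicate 3 lay only 1.58 times above EV replicate 3. On average overexpression stood 7.14 times above EV.
Directly next to it, with no other annotated gene between and 3105 bases away, lies LOC116214822 (26431902 to 26433127). It was at 128, 132 and 173 normalized counts in EV, at 4135, 8617 and 368 with PgMyb308-like and at 323 and 2508 in line 1712. In both neighbours PgMyb308-like replicates 1 and 2 and line 1712 replicate 2 were the 3 highest libraries. Another member, LOC116213438 (26453321 to 26454185), follows 20193 bases further on, with 2 genes between. It lay at 1.20, 2.13 and 9.67 normalized counts in EV, at 200.03, 655 and 70.8 with PgMyb308-like and at 72.3 and 74.0 in line 1712.
Both genes between the second and the third of these members tended the same way without meeting the rule. LOC116214825 (26440314 to 26441364) was at 0 in all EV libraries and in PgMyb308-like replicate 3, at 14.6 and 17.5 normalized counts in PgMyb308-like replicates 1 and 2 and at 32.2 and 12.6 in line 1712. LOC116213226 (26448511 to 26449405) was at 1083, 686 and 462 in EV, at 3953, 9961 and 2191 with PgMyb308-like and at 1187 and 1659 in line 1712. Its 5 overexpression libraries thus lay above its EV libraries, but by less than 1.5 times. On the left the stretch ends with LOC116215457 (26421714 to 26425258), at 305 to 404 normalized counts in EV and 262 to 509 with overexpression, where the groups overlapped. The 5 genes from LOC116214823 to LOC116213438 are 865 to 1282 bases long. Reads at extended 3′ ends and of similar gene copies can be assigned to a neighbour, and whether these genes share reads was not tested.

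A second stretch lies on chromosome 2. LOC116194583 (1329386 to 1330612), the second most abundant member, was at 1044, 877 and 1051 normalized counts in EV, at 3357, 3870.2 and 1764 with PgMyb308-like and at 2747 and 2657 in line 1712. Its EV libraries were close to each other, at 991 ± 98.9 (SD, n = 3). The next annotated gene, LOC116194879 (1343170 to 1344378), is also a member, at 25.3, 13.9 and 18 in EV, 269, 146 and 49.4 with PgMyb308-like and 50.8 and 94.9 in line 1712.
LOC116197582 (1368539 to 1369698), 24160 bases on, is the third. Its EV libraries were at 79.4, 14.9 and 66.3 normalized counts, PgMyb308-like replicates 1, 2 and 3 at 2068, 2089.9 and 264, and line 1712 at 225 and 338. PgMyb308-like replicates 1 and 2 stood far above the other 3 overexpression libraries, which were near each other.
Between the last 2 of these members, LOC116194817 (1357830 to 1359055) missed the rule through 1 library. It was at 54.1, 53.3 and 89.1 normalized counts in EV, at 198 and 289.0 in PgMyb308-like replicates 1 and 2 and at 372 and 320 in line 1712, but at 52.6 in PgMyb308-like replicate 3. LOC116194880, beside it, overlapped between the groups, with 0 to 13.1 normalized counts in EV and 1.69 to 36.4 with overexpression. Before the stretch, LOC116194729 (1305132 to 1306352) was at 537 to 1038 normalized counts in EV and 96.0 to 653 with overexpression. After it, LOC116197583 (1371665 to 1372821) was at 0, 1.07 and 0 in EV and at 36.4, 2.06 and 3.9 with PgMyb308-like. In line 1712 it was at 0.56 and 18.1, so that its groups overlapped through line 1712 replicate 1.

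**Figure D3:**
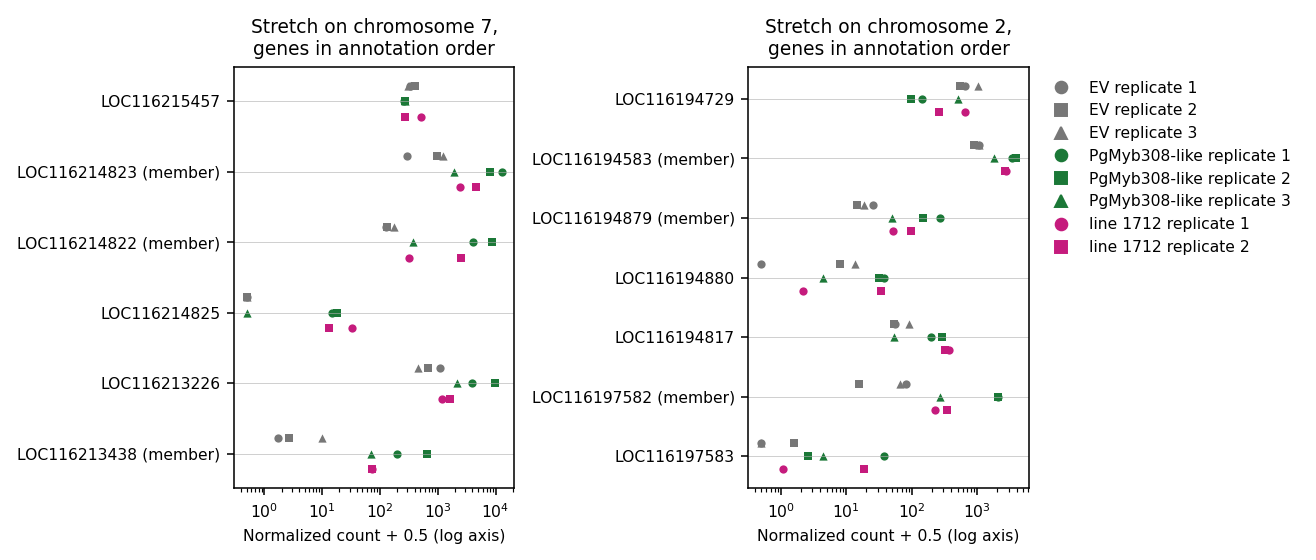
Normalized count plus 0.5 (log axis) in each library for the genes with counts in the stretches of chromosome 7 (left) and chromosome 2 (right), in annotation order, with the group given by colour and the replicate by shape. The members sit with all coloured points to the right of the grey EV points, while LOC116215457 and LOC116194729 at the upper edge do not.

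On chromosome 1, members lie near each other at a further pair of places. LOC116200643 (5854838 to 5856861) was at 15.6, 5.33 and 4.14 normalized counts in EV, at 80.0, 81.5 and 49.4 with PgMyb308-like and at 24.3 and 96.3 in line 1712. LOC116200632 (5857249 to 5859775) begins 387 bases after it and was at 6.01, 13.9 and 8.98 in EV, at 122, 83.6 and 31.8 with PgMyb308-like and at 32.8 and 44.7 in line 1712. A long noncoding RNA, LOC116200657, overlaps both and stood at 5.16 to 15.4 with overexpression and 5.33 to 18.7 in EV, so that its groups overlapped. The annotation used here gives no strand, and whether these overlapping genes share reads was not tested. The other pair, LOC116195344 and LOC116187699, is 18555 bases apart with 1 gene between. Over the genome, 2 pairs of members had no annotated gene between them, 4 pairs had at most 1 and 6 had at most 3. How often other genes lie this close was not counted, so that these counts do not show whether members cluster.
The 90 were spread over all 8 chromosomes, with 7 (chromosome 8) to 17 (chromosome 2) each. As a share of the genes with a mean of at least 10, this was from 0.480% on chromosome 8 to 0.957% on chromosome 7. The members had a median length of 2242 bases in the annotation, against 3217 bases over all genes with such a mean. A single annotated transcript was listed for 78.9% of them and for 65.8% of all such genes. Long noncoding RNAs made up 5 of the 90, or 5.56%, against 2.11% overall.

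The 5 long noncoding RNAs reached modest levels. The most even with overexpression was LOC116214793 (chromosome 7, 9248170 to 9253433), at 31.3, 18.1 and 3.45 normalized counts in EV, at 89.1, 81.5 and 78.6 with PgMyb308-like and at 82.5 and 72.6 in line 1712. LOC116193122 (chromosome 1, 39770041 to 39772142) had 4 reads in EV and stood at 14.6, 25.8 and 37.7 with PgMyb308-like and at 18.6 and 26.5 in line 1712. LOC116215480 and LOC116194893 were highest in line 1712 replicate 1, at 103 and 54.2 normalized counts. The remaining one, LOC116213356, ranged from 9.60 to 55.7 with overexpression and from 0 to 4.27 in EV.

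A few members were nearly level across the overexpression libraries. In 7 of the 90 the 5 overexpression libraries lay within 1.5 times of each other (7.78%, against 13.5% of the 14435 genes with a mean of at least 10 that were read in all 5). In these 7 the mean of overexpression was 1.92 to 4.59 times that of EV. Little spread on both sides was seen in LOC116203630, on chromosome 4 from 595263 to 597794. It was at 16.8, 16 and 17.3 normalized counts in EV, at 54.5, 54.7 and 48.7 with PgMyb308-like and at 62.1 and 51.6 in line 1712. The EV libraries differed by less than 1.1 times and the mean of overexpression was 3.25 times theirs.
Of the abundant members, LOC116204045 (chromosome 4, 37066700 to 37070514) was another of the 7, at 262, 189 and 202 normalized counts in EV, at 647, 681 and 555 with PgMyb308-like and at 574 and 568 in line 1712. LOC116214189 (chromosome 7, 8580606 to 8583247) was at 377, 102 and 121 in EV, at 1020.2, 911 and 1379 with PgMyb308-like and at 908 and 899 in line 1712. In the latter, as in LOC116207007, EV replicate 1 was the highest EV library by far. LOC116207007 (chromosome 5, 22298457 to 22300749) lay at 591, 256 and 195 in EV, 1209, 1408 and 2173 with PgMyb308-like and 1513 and 1038 in line 1712.

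At the other end, 8 of the 90 differed by 10.7 to 176 times between the highest and the lowest overexpression library (8.89%, against 7.46% of the 14435 genes). LOC116200895 (chromosome 3, 1671760 to 1672676) stood at 686, 170.3 and 3.9 normalized counts in PgMyb308-like replicates 1, 2 and 3 and at 18.6 and 236 in line 1712, and had 3 reads in EV. LOC116211454 (chromosome 6, 3707361 to 3710242) followed the same order at 476, 51.6 and 3.25 with PgMyb308-like and 3.39 and 64.2 in line 1712, and had 1 read in EV. In both, PgMyb308-like replicate 3 was the lowest and PgMyb308-like replicate 1 the highest of the 5. Of the 8 uneven genes, PgMyb308-like replicate 3 was the lowest library in 4, and PgMyb308-like replicate 1 or 2 the highest in all 8. LOC116213351 (chromosome 7, 27663651 to 27665131), one of the most abundant members, was less uneven, at 1555, 859.7 and 422 with PgMyb308-like, 398 and 1756 in line 1712, and 108, 181 and 203 in EV.
Over all 90, the highest overexpression library had a median of 3.01 times the lowest, against 2.32 over the 14435 genes. The lowest of the 5 was line 1712 replicate 1 in 35 members (38.9%), PgMyb308-like replicate 3 in 25 (27.8%) and PgMyb308-like replicate 2 in 4 (4.44%). Over the 14869 genes these libraries were the lowest in 18.1%, 20.3% and 18.8%. The highest was PgMyb308-like replicate 2 in 30 members (33.3%, against 17.9% of the 14869 genes) and line 1712 replicate 1 in 5 (5.56%, against 18.6%). Line 1712 replicate 1 and PgMyb308-like replicate 3 were also the most deeply sequenced libraries, with 3976951 and 3484260 counts, and the part of depth in this order was not tested. On the EV side, replicate 1 was the highest in 38 of the 86 members with a read in EV, replicate 3 in 28 and replicate 2 in 20.

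**Figure D4:**
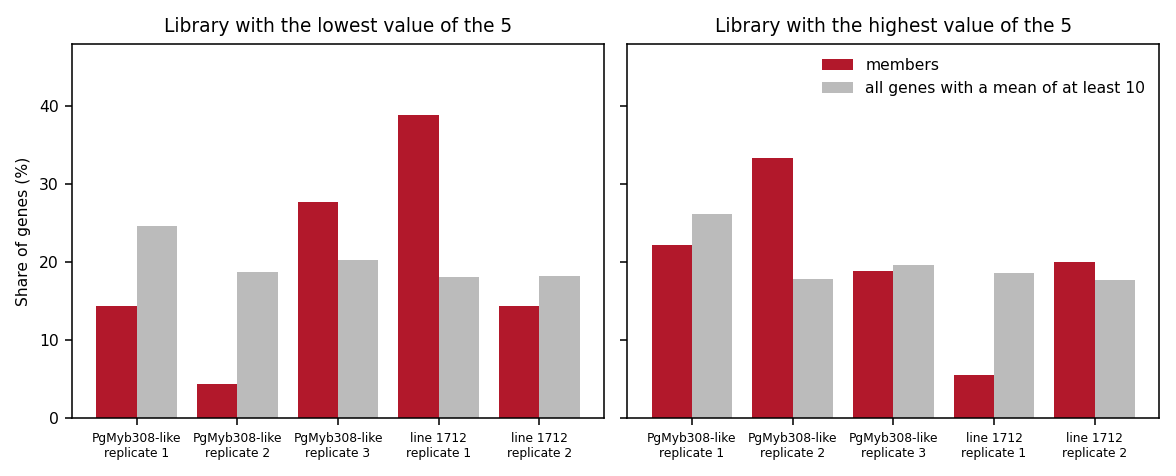
Share of genes (%) in which each overexpression library had the lowest (left) or the highest (right) value of the 5, for the 90 members (red) and for the 14869 genes with a mean normalized count of at least 10 (grey). Line 1712 replicate 1 was the lowest in 38.9% of the members and PgMyb308-like replicate 2 the highest in 33.3%.

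The rule did not use the difference between PgMyb308-like and line 1712, but it did use the values of these 5 libraries. Members had to be high in all 5, so that the shares over all genes are not a matched reference for them. The difference was examined with edgeR's quasi-likelihood test on the raw counts of all genes. A call needed a log2 fold change above 1 in size with an adjusted p under 0.05. None of the 90 was called, where 0% of the 15957 genes tested were called (edgeR). The adjusted p from edgeR was at least 0.998 for every member. DESeq2 called 12 genes, or 0.0752%, none of them a member, and its lowest adjusted p among the members was 0.385. At an unadjusted p under 0.05, edgeR gave 12 of the 90 (13.3%), of which 11 were higher with PgMyb308-like, against 567 genes or 3.55% of all those tested. DESeq2 gave 13 of the 90, against 4.04%. The edgeR count of 12 was 4 without line 1712 replicate 1 and 4 without PgMyb308-like replicate 2.
The members leaned towards PgMyb308-like in size, in libraries whose values the rule had used. Their median log2 fold change, PgMyb308-like minus line 1712, was 0.37 with a range of -1.74 to 2.42, against a median of 0.0046 over all genes tested. The members' median was 0.17 without PgMyb308-like replicate 2 and 0.20 without line 1712 replicate 1. The mean of PgMyb308-like was the higher in 65 of the 90 (72.2%, against 52.5% of the 14869 genes). All 3 PgMyb308-like libraries lay above both line 1712 libraries in 15 of the 90 (16.7%, against 8.76%) and below both in 4 (4.44%, against 7.57%). The median standard error of the difference was 0.60 on the log2 scale.

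The 12 genes were singled out after their values were seen. LOC116189366, on chromosome 8 from 3173322 to 3174699, had the lowest p of the 90. It stood at 63.8, 74.6 and 80.1 normalized counts in EV, at 300.1, 244 and 318 with PgMyb308-like and at 161 and 138 in line 1712, in 3 levels that did not overlap. The difference of PgMyb308-like and line 1712 was 0.92 on the log2 scale (standard error 0.26, unadjusted p = 0.0059 and adjusted p = 0.998 from edgeR). LOC116197582 in the stretch on chromosome 2 had the largest difference among the 12, at 2.37 (standard error 0.86, unadjusted p = 0.021 and adjusted p = 0.998 from edgeR). In LOC116197582 the 2 groups overlapped, as PgMyb308-like replicate 3, at 264 normalized counts, lay between the line 1712 libraries at 225 and 338. The only one of the 12 that was higher in line 1712 was the long noncoding RNA LOC116194893, at 9.09, 18.6 and 9.10 normalized counts with PgMyb308-like and 54.2 and 23.7 in line 1712, and at 3.61 to 5.53 in EV. Its log2 difference was -1.69 (standard error 0.64, unadjusted p = 0.026 and adjusted p = 0.998 from edgeR).

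**Figure D5:**
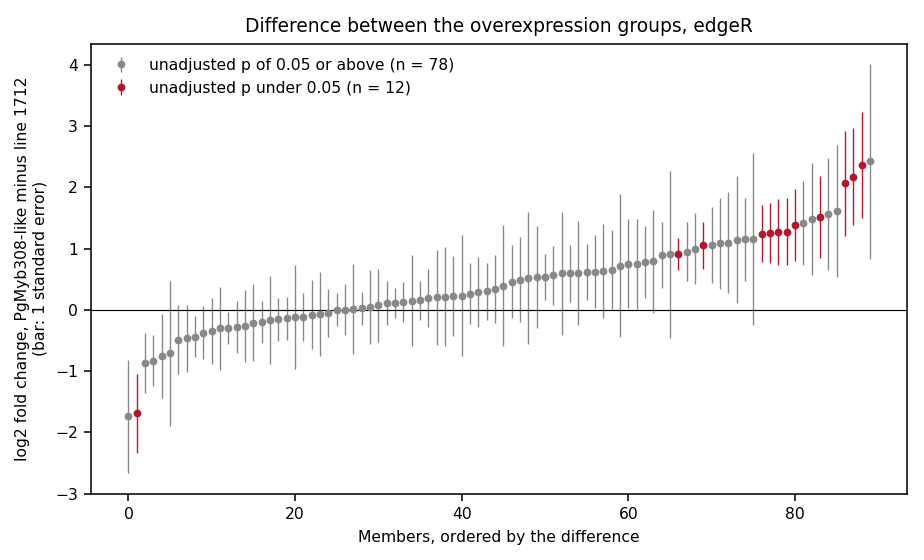
Log2 fold change, PgMyb308-like minus line 1712, from edgeR for each of the 90 members in order of size, with bars of 1 standard error. The 12 members with an unadjusted p under 0.05 are red, 11 of them above 0, and none passed the adjusted threshold.

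Against EV, the contrast that the rule itself used, the fits are a description only. Of the 90, edgeR called 5 higher with PgMyb308-like, where 0.0313% of all genes were called higher, and 0 in line 1712, where 0% were called higher. At an unadjusted p under 0.05, edgeR gave 87 of the 90 with PgMyb308-like and 86 in line 1712, against 8.27% and 4.26% of all genes, counts that the choice of the members largely fixes. DESeq2 called 63 of the 90 higher with PgMyb308-like, where 0.934% of all genes were called higher. In line 1712 it called 41 of the 90, where 0.363% of all genes were called higher. Both comparisons share the EV libraries. The members' median log2 fold change was 2.61 with PgMyb308-like and 2.18 in line 1712, against 0.0094 and 0.0049 over all genes, and nothing is read from these values, as they come from the libraries that chose the genes. The count of 5 called by edgeR was 37 without PgMyb308-like replicate 3 and 0 without EV replicate 2 or EV replicate 3. It was 1 without PgMyb308-like replicate 2, and 1 without either line 1712 replicate 1 or line 1712 replicate 2.

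At the threshold, members and other genes differed little in this ratio. The 3 members just inside were LOC116205945, LOC116214034 and LOC116195344, whose lowest overexpression library was 1.5, 1.51 and 1.52 times the highest EV library. LOC116205945 (chromosome 4, 18297394 to 18307380) stood at 45.7, 99.2 and 111 normalized counts in EV, at 218, 218 and 167 with PgMyb308-like and at 175 and 191 in line 1712. Just outside came LOC116215547, LOC116208531 and LOC116208231, at 1.5 (before rounding, just below the threshold), 1.49 and 1.49 times. LOC116215547 stood at 25.3, 14.9 and 20.7 normalized counts in EV, at 38.2, 82.6 and 55.9 with PgMyb308-like and at 37.8 and 81.0 in line 1712, so that its groups did not overlap either.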

How the data were processed

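TranSeq libraries of 8 hairy root samples were grouped by the sample labels. The authors aligned the reads with STAR 2.4.2a to the pomegranate genome and assigned them with htseq-count 0.6.1p1 to the terminal part of each gene, whose 3′ end they had extended downstream. They deposited raw counts and a normalized signal, in which each library's counts were divided by its size factor. The counts table lists genes whose highest count is 6 or more. The members and gene lists were chosen with earlier results of these data known. Gene positions and biotypes came from RefSeq (ASM765513v2), which matched all 90 members. It gives no product names, and sequences, product lists, cell type markers and promoter motifs were not analysed here.

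Raw counts were filtered (minimum count 10, minimum total 15), normalized by TMM and tested with edgeR 4.0.16 (R 4.3.3) in a single fit of the 8 libraries. P-values were adjusted by Benjamini-Hochberg over 15957 genes. The standard error was the fold change divided by the square root of F. DESeq2 1.42.0 was an alternative. The procedure was run on simulated data to check the sign and size of large set fold changes. How often differences as small as those of most members would be called is not given here. Named genes were the 8 with the largest ratio (genes at 0 in EV ranked first), the 8 most abundant, those at 0 in EV, the 3 on either side of the threshold and neighbours in the annotation. Others were named after their values were seen.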

Additional observations from a re-analysis of the deposited data

How the results depend on the processing

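The 90 members became 151 with a looser threshold ratio, 48 and 23 with threshold ratios of 2 and 3, and 42 with a mean of at least 50. With TMM-adjusted CPM the rule took 90 genes, 88 of them members, and with library totals only 84, 82 of them members. Alternatives chosen after seeing the data gave 94 with counts thinned to 1263321 per library, 71 of them members, and 60 with at least 10 reads on both sides. Leaving out 1 library gave 90 or more in each case, from 102 without PgMyb308-like replicate 1 to 237 without EV replicate 3. It gave 156 when PgMyb308-like replicate 3 was dropped, 195 for EV replicate 1 and 137 for EV replicate 2. The rule then has fewer libraries to meet, but its mean was taken anew over those left. Leaving out an EV library cannot raise the highest EV value and can only raise the mean of a member. That all 90 members were then kept was thus fixed in advance. When an overexpression library was left out, 83 to 88 were kept. Of the 90, 68 met the rule under all 3 of these scalings (TMM, library totals and thinned counts). Among those that did not was the most abundant member, LOC116214823, which missed the rule with library totals only. LOC116189366 missed it with thinned counts, and LOC116194893 with both library totals and thinned counts. Thinning was a single random draw, so that the members that miss the rule there can change with the draw. Pairs of members next to each other were 2, and 4 with at most 1 gene between.

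For PgMyb308-like against EV, the 6 calls (5 members) became 200 (63 members) with DESeq2, 20 (15) with no filter on low counts, 2 (1) with the 2 groups compared alone and 0 to 129 (0 to 37) when leaving out 1 library. For line 1712 against EV, the 1 call (0 members) became 79 (41) with DESeq2, 15 (2) with the 2 groups alone, 0 with a mean raw count of at least 50 and 0 to 17 (0 to 6) when leaving out 1 library. For PgMyb308-like against line 1712, the 0 calls became 12 with DESeq2 and 0 to 4 when leaving out 1 library, with 0 members in each. The causes were not tested. Where 1 line 1712 library was left out, the spread of the remaining one was taken from the other groups. With the replicate number as a block, edgeR called 0 genes and 0 members in each comparison. The same-numbered EV and PgMyb308-like libraries had correlations of their deviations of -0.238, 0.0746 and -0.27. For line 1712 the same-numbered libraries had -0.256 and 0.197 with PgMyb308-like and 0.203 and 0.0255 with EV. The highest of all pairs was 0.394, for line 1712 replicate 1 with PgMyb308-like replicate 3, whose numbers differ. So few samples cannot show whether libraries were paired. The promoter motif shares were not run. Depth limits the 30 members with fewer than 10 reads on one of the sides.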
